A study of Mus musculus with 28 samples.

Results

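The nuclear genes of respiratory complexes III and IV and of the ATP synthase were followed in ribosome-bound mRNA from retinal ganglion cell (RGC) axons of the mouse superior colliculus (SC) and from the retina. They were taken by symbol: every listed gene whose name begins with Uqcr, Cox4i, Cox5, Cox6, Cox7 or Cox8 followed by a subunit letter, or Atp5. That gave 43 of 23995 genes, of which 8 belong to complex III, 18 to complex IV and 17 to the ATP synthase (complex V). The names Cox7a2l, Atp5s and Atp5sl match but are those of assembly or accessory proteins rather than structural subunits. All mice carried the RiboTag allele on a C57BL/6 background, in which Cre recombination replaces ribosomal protein L22 by an HA-tagged form. In Cre-positive mice a Pax6-alpha-Cre transgene, active for a short time in progenitors of the peripheral retina, tagged the ribosomes of the RGCs derived from them, so that HA-bound mRNA of the SC came from their axons. The same pull-down from littermates without Cre measured the background. SC was collected from both genotypes, and retina from Cre-positive mice, at stages E17.5 (embryonic days), P0.5 and P7.5 (postnatal days) and in the adult, with 2 libraries in each of these 12 groups, each from pooled animals. A further 4 adult libraries, of Cre-positive SC and of retina, each either run off or not (ribosome run-off), had 1 library a condition.

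Complex III passes electrons from ubiquinol to cytochrome c and pumps protons, complex IV (cytochrome c oxidase) passes them on to oxygen, and the ATP synthase uses the proton gradient to make ATP. The catalytic cores of complexes III and IV are partly encoded by mitochondrial DNA, while most other subunits are made on cytosolic ribosomes from nuclear mRNA, imported and assembled. Axon terminals depend on mitochondria for ATP, and mRNAs of nuclear-encoded mitochondrial proteins are among those long known from axons. Ribosomes were pulled down here from a supernatant cleared of mitochondria. The subunits encoded by mitochondrial DNA were not analysed here.

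The 24 libraries of the stage series give FPKM (fragments scaled to the length of the transcript and to the mapped total of the library). Levels of different genes are set side by side on that scale. Whether amplification and reads that match several places affected genes alike was not tested, so orders between genes are descriptions. Their depth is not known from these values. An estimate from the steps between low values runs from 520000 to 14720000 fragments, and the 4 lowest were SC libraries: E17.5 Cre-negative replicate 1 and adult Cre-negative replicate 1 with 520000 and 560000, and adult Cre-positive replicates 1 and 2 with 790000 and 1380000. Replicates were closest at P0.5, with Pearson's r of log2(FPKM + 1) across genes of 0.923 in Cre-positive SC, 0.916 in Cre-negative SC and 0.938 in retina, against, in the same order, 0.385, 0.181 and 0.797 at E17.5, 0.684, 0.665 and 0.669 at P7.5, and 0.525, 0.400 and 0.695 in the adult; genes are not independent replicates, so these values are descriptions. The fewest genes above 0 were found in adult Cre-negative replicate 2, Cre-positive replicate 2 and retina replicate 1, with 1162, 1640 and 2082 genes. These 3 libraries and E17.5 Cre-negative replicate 1, which had the lowest estimated depth but 4374 genes above 0, were set apart and left out together in alternative fits, 3 of them SC libraries. The labels do not say which animals entered each replicate, so p-values measure only the spread between these samples, which may be technical. A lower level in the SC can come from fewer labelled axons or from less RNA per axon, and the 2 cannot be told apart.

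Of the 10 genes of the RGC list, 6 and 7 were above 0 in the Cre-positive and 5 in each Cre-negative SC library at P0.5, with summed levels of 888 and 518 FPKM against 759 and 200.01 FPKM, and 10 and 9 were above 0 in retina. The SC sums joined genes of different order. Pou4f1, most of the Cre-negative sums, had 230.5 and 85.98 FPKM with Cre and 704.5 and 191.05 FPKM without. Stmn2 had 587 and 407.7 FPKM with Cre and 0.257 and 0.0976 FPKM without. Nefl, Nefm and Slc17a6 were also higher in both Cre-positive libraries than in either Cre-negative one, while Pou4f1 and Pou4f2 overlapped between genotypes. The microglial list had 1 of 6 genes above 0 in each Cre-negative library (77 and 43.2 FPKM) and none in the Cre-positive ones at that age, while the astrocyte list summed to 60.8 and 51.9 FPKM with Cre against 15.9 and 38.3 FPKM without. At E17.5 the red blood cell list, 4 of whose 5 genes were above 0 in each SC library, moved with the members: it summed to 762 and 0.6 FPKM in the Cre-positive and 2489 and 6.2 FPKM in the Cre-negative replicates 1 and 2. The summed RGC list went the other way, with 164 and 3512 FPKM with Cre and 337 and 2060 FPKM without. Pou4f1 carried that gap, with 80.29 and 3501 FPKM with Cre and 66.46 and 2060 FPKM without. Stmn2, of the same list, moved with the members: 65.16 and 5.15 FPKM with Cre, 244.3 and 0 FPKM without. The astrocyte list differed less, with 27.8 and 37.0 FPKM and 92.6 and 115 FPKM. The microglial list had 0.143 and 0 FPKM with Cre and 168 and 0 FPKM without. Adult Cre-negative replicate 2 had no RGC gene above 0 and 4148 FPKM over 2 oligodendrocyte genes, against 735 and 990.5 FPKM over 3 in the adult Cre-positive libraries. The part of these lists in the members' values was not tested.

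Many of these subunits are small proteins whose mRNAs have left near-identical processed copies in the genome, so that a read need not point to the gene of its name. Of 42 members with an annotated coding sequence, 14 had at least 1 copy at 95% identity over 80% of it in the transcript of another gene. Atp5g2, Atp5l and Cox7c had a copy with no difference over the part aligned. The coding sequences of 3 members are given to show the range, 5′ to 3′ on the coding strand (GENCODE, GRCm38), with capitals at the bases where the closest other transcript differs. Cox7c (chr13:86044816-86046904, minus strand), a complex IV subunit, is matched by the pseudogene Gm12338 over all 192 bases and so has no capital; Uqcr11 (chr10:80402997-80406830, minus strand), of complex III, differs from Gm16418 at 2 of 171 bases; Cox7b (chrX:106015700-106022450, plus strand), of complex IV, differs from Gm13771 at 14 of 243.
Cox7c: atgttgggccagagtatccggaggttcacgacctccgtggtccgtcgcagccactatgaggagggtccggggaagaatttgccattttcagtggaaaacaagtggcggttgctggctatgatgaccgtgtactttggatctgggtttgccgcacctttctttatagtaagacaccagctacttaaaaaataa
Uqcr11: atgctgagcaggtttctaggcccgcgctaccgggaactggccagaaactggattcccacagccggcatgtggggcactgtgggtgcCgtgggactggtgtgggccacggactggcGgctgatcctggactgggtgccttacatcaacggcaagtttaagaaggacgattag
Cox7b: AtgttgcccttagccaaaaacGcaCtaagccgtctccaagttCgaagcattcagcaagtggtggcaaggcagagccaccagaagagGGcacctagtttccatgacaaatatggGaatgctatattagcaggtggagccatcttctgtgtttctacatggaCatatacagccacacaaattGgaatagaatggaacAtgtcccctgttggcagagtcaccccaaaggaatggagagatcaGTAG
Cox7c never passed 0.549 FPKM in any library, Uqcr11 reached 349.6 FPKM, and Cox7b was the member most often present, at 1 FPKM or more in 22 of 24 libraries. The 28 members with no such copy include 4 that were listed at 0 throughout, Cox6a2, Cox7b2, Cox8b and Cox8c. How reads that match several places entered the FPKM values was not given in the sources used here, and its part in the values was not tested.

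The Cre-positive SC libraries held the members most evenly at P0.5. Of the 25 members above 0 in either of the 2 libraries there, 24 were above 0 in both, against 20 of 31 members at E17.5, 9 of 19 members at P7.5 and 2 of 19 members among the adult libraries. By complex, 6 of 8 members of complex III, 9 and 10 of 18 of complex IV and 9 of 17 of the ATP synthase were above 0 in the P0.5 libraries. The total was 24 and 25 of the 43 members in the P0.5 Cre-positive libraries, 14 in each Cre-negative one, and 32 and 35 in retina. In the adult Cre-positive libraries, whose estimated depth was low, the count was 16 and 5. Atp5f1 and Atp5c1, listed at 0 in both, had 956 and 806 reads in the adult Cre-positive SC library without run-off. Uqcrq and Atp5h, also listed at 0 in both, had 0 reads there. A zero in the adult stage libraries thus need not mean that no mRNA was bound. The 5 members Atp5g2, Cox6a2, Cox7b2, Cox8b and Cox8c were listed at 0 in all 24 libraries, and Cox7c stayed under 1 FPKM in all of them.

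**Figure D1:**
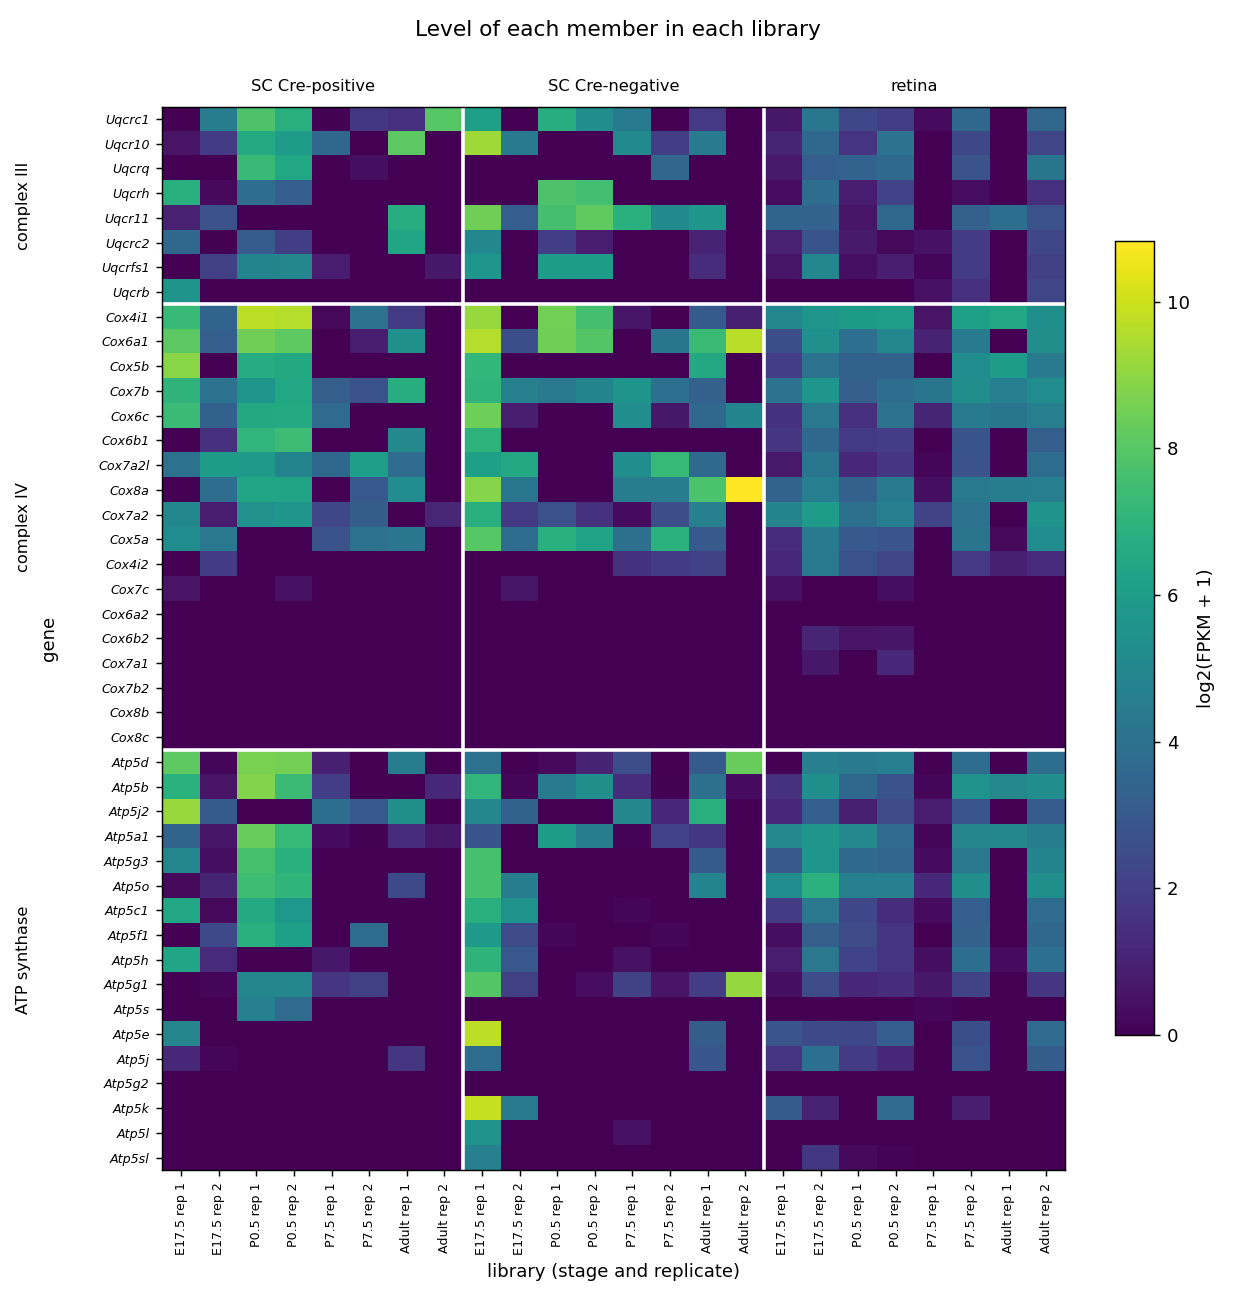
Level of each of the 43 members in each of the 24 libraries, as log2(FPKM + 1) on a colour scale from 0 (dark) to the highest value (yellow); rows are genes ordered within complex by their mean in Cre-positive SC, columns are libraries by source, stage and replicate. The P0.5 Cre-positive columns are bright for 24 and 25 members and alike in both replicates, while E17.5 and adult columns differ between replicates.

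Members were tested with limma on log2(FPKM + 1) over all genes with at least 1 FPKM in 2 or more libraries of the fit, with Benjamini-Hochberg adjustment over all genes tested and a threshold of 0.05, two-sided. In the fit of the 16 SC libraries 32 members entered among 5983 genes: 7 of complex III, 11 of complex IV and 14 of the ATP synthase. A gene could pass this filter through the group in which it was high, so the counts describe the members tested, not all 43. At P0.5, 10 of the 32 were higher in Cre-positive than in Cre-negative SC, where 28.1% of all genes tested were, and 2 were lower, where 4.35% were. The members' share is thus close to that of all genes. Leaving out Cre-positive replicate 1 or 2 left 1 or 3 members higher, leaving out either Cre-negative replicate left 4, and none of the 4 fits called a member lower. Uqcrq was called in each of these fits. In the SC outside the P0.5 Cre-positive group, only P7.5 Cre-negative replicate 2 held Uqcrq at 1 FPKM or more (10.7 FPKM). Uqcrq thus needed the group in which it was high to pass the filter. Its calls, here and in the stage steps, add no support beyond those values. Atp5s passed the filter only through the 2 Cre-positive libraries, so its call in the fits that kept both adds no support. Without a test, both Cre-positive libraries lay above both Cre-negative ones for 20 of the 32 members (51.3% of all genes) and below both for 4 (10.6%).

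Complex III was divided at P0.5. Of its 7 members tested, Uqcrq was higher with Cre, Uqcr11 was lower, and 5 did not pass; the median difference of the 7 on the log2(FPKM + 1) scale was 1.12, beside 0.78 over all genes tested. Uqcrq, a small subunit of complex III that binds ubiquinone, had 158 and 86.9 FPKM in the 2 Cre-positive libraries, 0 in both Cre-negative libraries and 9.53 and 12.5 FPKM in the retina (limma adjusted p for Cre = 0.00024). At E17.5 Uqcrq had 0 in both with Cre, 0 in both without and 0.65 and 8.43 FPKM in retina. At P7.5 Uqcrq had 0 and 0.315 FPKM with Cre, 0 and 10.7 FPKM without and 0 and 5.82 FPKM in retina, and in the adult 0 in both with Cre, 0 in both without and 0 and 17.54 FPKM in retina. Its axonal level was therefore above 1 FPKM only at P0.5 among the 4 stages, and the Cre-positive libraries there overlapped with no other group of that age.

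Uqcr11, a small accessory subunit, ran the other way, with 0 in both Cre-positive libraries, 196 and 290.1 FPKM in the Cre-negative SC and 0.538 and 11.1 FPKM in the retina at P0.5 (limma adjusted p = 0.0301). At E17.5 Uqcr11 had 1.01 and 5.37 FPKM with Cre, 349.6 and 8.4 FPKM without and 10.1 and 9.68 FPKM in retina. At P7.5 Uqcr11 had 0 in both with Cre, 117 and 35.2 FPKM without and 0 and 8.83 FPKM in retina, and in the adult 107 and 0 FPKM with Cre, 51.9 and 0 FPKM without and 14.1 and 5.46 FPKM in retina. It was listed at 0 in both Cre-positive libraries at P0.5 and P7.5 while both Cre-negative libraries held it, and over all 4 stages it was the member called lower (adjusted p = 0.0424), where 2.24% of all genes tested were. That call was lost without any single library of P0.5 or P7.5, without replicate 1 of either genotype at E17.5, and without Cre-positive replicate 2 or Cre-negative replicate 1 of the adult. It has 2 near-identical copies, whose part was not tested.

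Uqcrh, the hinge subunit bound to cytochrome c1, had 13.4 and 8.29 FPKM with Cre, 222 and 189 FPKM without Cre and 0.757 and 3.52 FPKM in retina at P0.5. That is a difference of -4.15 ± 1.57 (SE) that did not pass (limma adjusted p = 0.0692), although the groups did not overlap. At E17.5 Uqcrh had 108 and 0.217 FPKM with Cre, 0 in both without and 0.283 and 13.7 FPKM in retina. At P7.5 Uqcrh had 0 in both with Cre, 0 in both without and 0 and 0.266 FPKM in retina, and in the adult 0 in both with Cre, 0 in both without and 0 and 1.84 FPKM in retina. Both Cre-negative P0.5 libraries exceeded every other SC library.

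Uqcrc1, a core protein of complex III and its most abundant member in Cre-positive SC (mean of the 8 libraries 76.6 FPKM), had 219 and 110.5 FPKM with Cre, 106 and 38.6 FPKM without and 3.88 and 2.94 FPKM in retina at P0.5. At E17.5 Uqcrc1 had 0 and 22.4 FPKM with Cre, 70.6 and 0 FPKM without and 0.632 and 17.7 FPKM in retina. At P7.5 Uqcrc1 had 0.0588 and 2.38 FPKM with Cre, 20.1 and 0 FPKM without and 0.258 and 11.5 FPKM in retina, and in the adult 1.73 and 257 FPKM with Cre, 2.44 and 0 FPKM without and 0 and 10.8 FPKM in retina. The Cre-positive libraries lay just above the Cre-negative ones at P0.5, and the difference of 1.27 ± 2.62 (SE) did not pass (adjusted p = 1); without adult replicate 2 the mean over Cre-positive SC was 50.8 FPKM.

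Uqcr10, a small subunit, was second by mean level in Cre-positive SC (55.8 FPKM, or 25.1 FPKM without adult replicate 1, under the 35.1 FPKM of Uqcrq) and had 97.8 and 62.7 FPKM with Cre, 0 in both without and 2.11 and 16.7 FPKM in retina at P0.5 (limma adjusted p = 0.102). At E17.5 Uqcr10 had 0.495 and 2.78 FPKM with Cre, 622 and 21.3 FPKM without and 1.19 and 11.2 FPKM in retina. At P7.5 Uqcr10 had 11.7 and 0 FPKM with Cre, 34.8 and 3.03 FPKM without and 0 and 4.14 FPKM in retina, and in the adult 271 and 0 FPKM with Cre, 21.8 and 0 FPKM without and 0 and 3.74 FPKM in retina. The Cre-negative libraries were thus the higher ones at E17.5 and the lower ones at P0.5. The Rieske iron-sulfur protein Uqcrfs1 was lower with Cre, at 28.4 and 30.1 against 60.3 and 60.4 FPKM, and did not pass (adjusted p = 0.874), and the core protein Uqcrc2 had 7.61 and 2.96 against 3.04 and 0.791 FPKM. Uqcrb was not tested, with a single SC library above 0 (48.0 FPKM, E17.5 Cre-positive replicate 1).

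In complex IV, 3 of 11 members tested were higher with Cre at P0.5 (28.1% of all genes tested were), 1 was lower (4.35% were) and 7 did not pass. The median difference was 3.49, beside 0.78 over all genes tested. Cox6b1, which lies at the contact between the 2 monomers of the dimer, had 137 and 169 FPKM with Cre, 0 in both without and 2.55 and 2.88 FPKM in retina (limma adjusted p = 0.0187). At E17.5 Cox6b1 had 0 and 1.72 FPKM with Cre, 127 and 0 FPKM without and 2.23 and 11.4 FPKM in retina. At P7.5 Cox6b1 had 0 in both with Cre, 0 in both without and 0 and 6.01 FPKM in retina, and in the adult 33 and 0 FPKM with Cre, 0 in both without and 0 and 8.8 FPKM in retina. It was listed at 0 in all 4 SC libraries at P7.5.

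Cox7a2l, a factor that joins complexes III and IV into supercomplexes, had 56.3 and 28.8 FPKM with Cre, 0 in both without and 1.39 and 2.29 FPKM in retina at P0.5 (limma adjusted p = 0.0267). At E17.5 Cox7a2l had 16 and 61.5 FPKM with Cre, 70.4 and 91.9 FPKM without and 0.691 and 17.9 FPKM in retina. At P7.5 Cox7a2l had 11.7 and 66.4 FPKM with Cre, 38.3 and 149.9 FPKM without and 0.14 and 5.79 FPKM in retina, and in the adult 12.9 and 0 FPKM with Cre, 12.1 and 0 FPKM without and 0 and 13.2 FPKM in retina. Both genotypes held it at E17.5, where the Cre-negative libraries were the higher, and at P7.5, where they overlapped. Cox8a, the smallest subunit, also rose with Cre at P0.5, from 0 in both to 80.1 and 78 FPKM (adjusted p = 0.0432).

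Cox5a, which sits on the matrix side of the enzyme, was the member called lower, with 0 in both with Cre, 114 and 76.6 FPKM without and 7.05 and 6.33 FPKM in retina at P0.5 (limma adjusted p = 0.0175). At E17.5 Cox5a had 37.1 and 18.9 FPKM with Cre, 257 and 13.2 FPKM without and 1.62 and 20.4 FPKM in retina. At P7.5 Cox5a had 5.91 and 15.8 FPKM with Cre, 14.8 and 118 FPKM without and 0 and 16.7 FPKM in retina, and in the adult 17.9 and 0 FPKM with Cre, 7.18 and 0 FPKM without and 0.194 and 37.2 FPKM in retina. The axonal libraries held it at E17.5 and P7.5, so that the zeros stand at P0.5 alone among the 3 younger stages. No near-identical copy of Cox5a was found. Its partner on the matrix side, the zinc-binding Cox5b, had the opposite pattern at P0.5, 103 and 94.5 FPKM with and 0 in both without Cre, and did not pass (adjusted p = 0.124).

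The most abundant members of complex IV were not called for Cre at P0.5, which does not show that they were independent of it. Cox4i1, the regulatory subunit that binds ATP, was the highest member in Cre-positive SC (mean 230.3 FPKM, or 139.6 FPKM without P0.5 replicate 1) and had 866 and 791 FPKM with Cre, 363 and 195 FPKM without and 58.5 and 63.3 FPKM in retina at P0.5. At E17.5 Cox4i1 had 158 and 10.3 FPKM with Cre, 572 and 0 FPKM without and 30.3 and 50.1 FPKM in retina. At P7.5 Cox4i1 had 0.168 and 15.3 FPKM with Cre, 0.598 and 0 FPKM without and 0.501 and 69.2 FPKM in retina, and in the adult 2.62 and 0 FPKM with Cre, 7.37 and 0.932 FPKM without and 89.5 and 40.4 FPKM in retina. The Cre-positive libraries stood above the Cre-negative ones at P0.5 without overlap, yet the difference of 1.64 ± 2.54 (SE) was well within the spread the fit assigns to this gene over all stages (limma adjusted p = 0.891).

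Cox6a1, the non-muscle form of subunit VIa, had 355 and 278 FPKM with Cre, 349.9 and 240.1 FPKM without and 14.5 and 30.6 FPKM in retina at P0.5. At E17.5 Cox6a1 had 275 and 8.58 FPKM with Cre, 779.9 and 5.13 FPKM without and 4.99 and 42.1 FPKM in retina. At P7.5 Cox6a1 had 0 and 0.846 FPKM with Cre, 0 and 17.4 FPKM without and 1.05 and 21.6 FPKM in retina, and in the adult 41.5 and 0 FPKM with Cre, 164 and 836 FPKM without and 0 and 40.2 FPKM in retina. The genotypes overlapped at P0.5, with a difference of 0.12 ± 2.57 (SE; limma adjusted p = 1), so the abundance of this mRNA in the axonal pull-down was matched by the background. Cox6c was at 94.9 and 97.8 against 0 in both (adjusted p = 0.0618) and Cox7b at 50.2 and 87.9 against 19.6 and 28.8 FPKM (adjusted p = 0.84).

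The ATP synthase had the most members tested and the most called at P0.5. Of 14, 6 were higher with Cre (28.1% of all genes tested were) and none was lower (4.35% were). The median difference was 3.70, beside 0.78 over all genes tested. The 6 called span the central stalk (Atp5c1, gamma, and Atp5d, delta), the stator (Atp5o, the oligomycin sensitivity protein; Atp5f1, subunit b), the rotor ring (Atp5g3, subunit c) and the coupling factor Atp5s. A further 3, the head subunits Atp5a1 (alpha) and Atp5b (beta) and the ring subunit Atp5g1, did not overlap between genotypes but did not pass. Both Cre-positive libraries thus lay above both Cre-negative ones for 9 of 14, beside 51.3% of all genes tested. The remaining 5, Atp5e, Atp5h, Atp5j, Atp5j2 and Atp5k, were listed at 0 in all 4 SC libraries of that age.

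Atp5s had 24.7 and 12.9 FPKM with Cre at P0.5 and was listed at 0 in every other SC library of every stage (limma adjusted p = 1.34e-05). In retina it was above 0 in 1 of 8 libraries, at 0.0973 FPKM at P7.5. It was also the member called higher over all 4 stages (adjusted p = 0.00678), where 10.1% of all genes tested were. With values in 2 SC libraries alone, Atp5s passed the filter only through the group in which it was high. Its p-values therefore add no support beyond those values. The call over all stages restates the one at P0.5, and Atp5s could not be tested without either library.

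Atp5o had 178 and 132 FPKM with Cre, 0 in both without and 24.2 and 25 FPKM in retina at P0.5 (limma adjusted p = 0.00419). At E17.5 Atp5o had 0.219 and 1.19 FPKM with Cre, 203 and 22.8 FPKM without and 36.4 and 119.6 FPKM in retina. At P7.5 Atp5o had 0 in both with Cre, 0 in both without and 1.27 and 39.7 FPKM in retina, and in the adult 4.4 and 0 FPKM with Cre, 27.8 and 0 FPKM without and 0 and 41 FPKM in retina. Both Cre-negative libraries were above both Cre-positive ones at E17.5, and the order turned at P0.5. Retina, where the mRNA of RGC somas and other retinal cells is sampled, held it in 7 of 8 libraries.

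Atp5f1 had 117 and 68.2 FPKM with Cre, 0.116 and 0 FPKM without and 4.59 and 2.19 FPKM in retina at P0.5, a difference of 6.42 ± 1.40 (SE; limma adjusted p = 0.00472). At E17.5 Atp5f1 had 0 and 4.31 FPKM with Cre, 57.4 and 4.79 FPKM without and 0.325 and 8.8 FPKM in retina. At P7.5 Atp5f1 had 0 and 13.1 FPKM with Cre, 0 and 0.148 FPKM without and 0 and 8.9 FPKM in retina, and in the adult 0 in both with Cre, 0 in both without and 0 and 11.1 FPKM in retina. At E17.5 both Cre-negative libraries were above both Cre-positive ones. Atp5c1 went from 0 in both without Cre to 98.4 and 53.3 FPKM with Cre (adjusted p = 0.0112).

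Atp5d was the most abundant ATP synthase member in Cre-positive SC (mean 135.7 FPKM) and had 397 and 382 FPKM with Cre, 0.196 and 1.13 FPKM without and 21.5 and 23.7 FPKM in retina at P0.5. That difference of 7.93 ± 2.68 (SE) had the largest fitted size among the members (limma adjusted p = 0.044). At E17.5 Atp5d had 284 and 0.104 FPKM with Cre, 15.3 and 0 FPKM without and 0 and 25 FPKM in retina. At P7.5 Atp5d had 0.917 and 0 FPKM with Cre, 4.87 and 0 FPKM without and 0 and 13.8 FPKM in retina, and in the adult 22.4 and 0 FPKM with Cre, 7.26 and 317 FPKM without and 0 and 14.1 FPKM in retina. The 2 replicates of a group were far apart at E17.5 and in the adult.

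Atp5b had 430.2 and 167 FPKM with Cre, 21 and 40.0 FPKM without and 11.5 and 5.55 FPKM in retina at P0.5, a difference of 3.16 ± 2.44 (SE) that did not pass (limma adjusted p = 0.447). At E17.5 Atp5b had 120.2 and 0.5 FPKM with Cre, 138 and 0.122 FPKM without and 1.89 and 40.6 FPKM in retina. At P7.5 Atp5b had 3.02 and 0 FPKM with Cre, 1.61 and 0.0555 FPKM without and 0.15 and 45.4 FPKM in retina, and in the adult 0 and 1.28 FPKM with Cre, 14.8 and 0.263 FPKM without and 33.2 and 39 FPKM in retina. Atp5a1 was at 313 and 149 against 59.8 and 22.4 FPKM (adjusted p = 0.21) and Atp5g3 at 204 and 115 against 0 in both (adjusted p = 0.026). The alpha and beta subunits thus had a background in both Cre-negative libraries, where Atp5c1 and Atp5g3 were listed at 0.

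**Figure D2:**
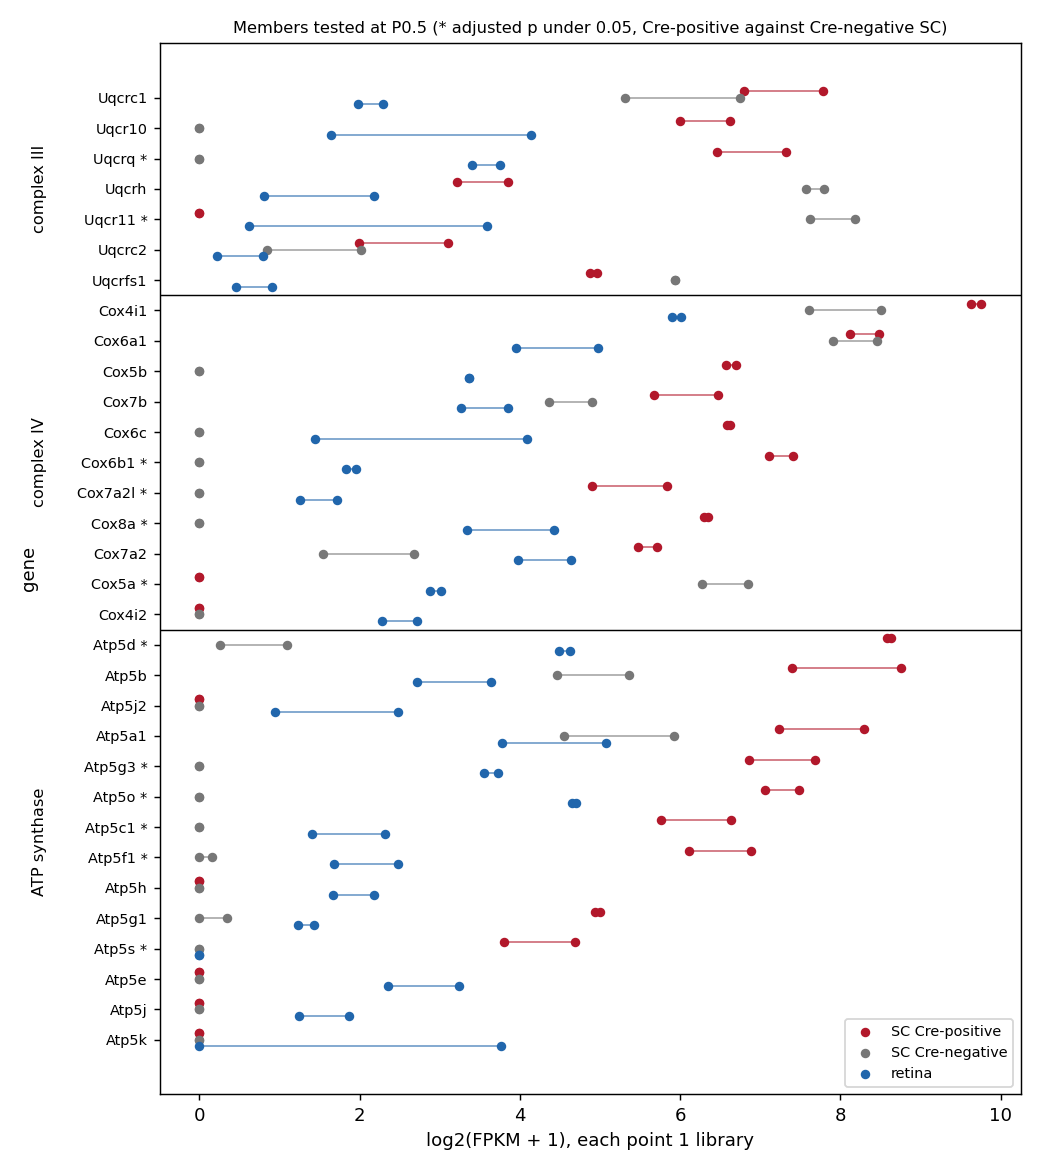
The 32 members tested in SC at P0.5, as log2(FPKM + 1), with 1 point a library and a line joining the 2 libraries of a group, for SC of both genotypes and for retina. Members with an asterisk were called between genotypes; 20 members have both Cre-positive points above both Cre-negative ones, and Uqcrh, Uqcr11, Uqcrfs1 and Cox5a have them below.

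At the other stages hardly any member was called for Cre, where few of all genes tested were. At E17.5 no member was higher (0.468% of all genes tested were; unadjusted p under 0.05 for 1 member) and Atp5k alone was lower (1.1% of genes; unadjusted for 3). Atp5k, subunit e of the membrane part, had 0 in both Cre-positive libraries, 946 and 19.6 FPKM in the Cre-negative SC and 7.4 and 1.03 FPKM in the retina (limma adjusted p = 0.0209). It was listed at 0 in every other SC library, so it passed the filter only through the group in which it was high. Its p-values therefore add no support beyond those values, and it could not be tested without either Cre-negative library. In retina it had 0 and 12.6 FPKM at P0.5, 0 and 0.897 FPKM at P7.5 and 0 in both in the adult. Between these 2 Cre-negative libraries the red blood cell list had a gap in the same direction as Atp5k. The summed RGC list, carried by Pou4f1, had one in the opposite direction. The part of either list was not tested. The call was lost with a replicate block (adjusted p = 0.0924), without Cre-positive replicate 1 (adjusted p = 0.0726) and in the fit of these 4 libraries alone (limma adjusted p = 1). Without Cre-negative replicate 1 no member was called lower, and without replicate 2, 5 were; without Cre-positive replicate 2, 1 member was higher. At P7.5 no member was called, with 0% of all genes tested called in either direction, and 2 members had an unadjusted p under 0.05, both lower with Cre. In the adult no member was called, with 0.15% of all genes called, and 3 members had an unadjusted p under 0.05, all lower with Cre. Without the 3 SC libraries set apart 1 member was higher with Cre in the adult.

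Within Cre-positive SC, a minority of members was called in the steps to and from P0.5. From E17.5 to P0.5, 6 of 32 rose, a smaller share than the 25.1% of all genes tested, and none fell (1.81% did). At an unadjusted p under 0.05, 3 members were lower, Cox5a, Atp5h and Atp5j2. The 6 that rose were Uqcrq, Cox6b1, Atp5s, Atp5o, Atp5a1 and Atp5f1. Atp5a1, the alpha subunit of the catalytic head, went from 10.3 and 0.548 to 313 and 149 FPKM, a difference of 5.70 ± 1.35 (SE; limma adjusted p = 0.00875). Atp5o went from 0.219 and 1.19 to 178 and 132 FPKM, a difference of 6.56 ± 1.55 (SE; adjusted p = 0.00859). Median differences were 3.89 for complex III, 2.19 for complex IV and 4.28 for the ATP synthase, beside 0.69 for all genes tested. Without the 3 SC libraries set apart 10 members rose and 1 fell, without either P0.5 replicate 1 rose, and without E17.5 replicate 2, 3 fell.

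From P0.5 to P7.5, 11 of 32 members fell, a share near the 29.2% of all genes tested, and none rose (0.501% did; none had an unadjusted p under 0.05 in that direction). Of the 11, 1 belongs to complex III, 3 to complex IV and 7 to the ATP synthase. Uqcrq fell from 158 and 86.9 to 0 and 0.315 FPKM (limma adjusted p = 0.000328), and Atp5a1 fell from 313 and 149 to 0.233 and 0.0408 FPKM, a difference of -7.58 ± 1.35 (SE; adjusted p = 0.00144). Members not called for Cre at P0.5 fell as well: Cox4i1 went from 866 and 791 to 0.168 and 15.3 FPKM, a difference of -7.57 ± 2.54 (SE; limma adjusted p = 0.0461). Cox6a1 went from 355 and 278 to 0 and 0.846 FPKM (adjusted p = 0.0411). The others called were Cox6b1, Atp5s, Atp5o, Atp5c1, Atp5g3, Atp5f1 and Atp5d. Median differences were -4.48 for complex III, -4.72 for complex IV and -4.42 for the ATP synthase, beside -1.19 for all genes tested. Without P0.5 replicate 1 or 2, 1 or 3 members fell, and without P7.5 replicate 1 or 2, 4 or 5 did. In the same Cre-positive libraries the astrocyte list summed to 60.8 and 51.9 FPKM at P0.5, 300.3 and 672 FPKM at P7.5 and 615 and 563 FPKM in the adult. Gja1 carried that rise, with 12.9 and 15.8, 288 and 642, and 613 and 563 FPKM in the same order. Slc1a3 went the other way, with 25.5 and 17.7, 11.5 and 0.204, and 0.627 and 0 FPKM. Aldh1l1 had 19.9 and 18.2, 0.0904 and 12.5, and 0.436 and 0 FPKM, and Aqp4 was listed at 0. The part of the astrocyte list in these steps was not tested. From P7.5 to the adult no member was called, with 0.0836% of all genes called in either direction and no member at an unadjusted p under 0.05; without the 3 SC libraries set apart 2 members were higher in the adult.

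Because the Cre-negative libraries also changed with age, the step was compared between genotypes as an interaction. For E17.5 to P0.5 the step was higher with Cre for 10 of 32 members (23.9% of all genes tested) and lower for 1 (3.23%). The 10 were Uqcrq and Uqcr10, Cox8a and Cox6b1, and Atp5s, Atp5o, Atp5f1, Atp5c1, Atp5k and Atp5g1, and the 1 was Uqcrh. Uqcr10, for example, went from 0.495 and 2.78 to 97.8 and 62.7 FPKM with Cre and from 622 and 21.3 to 0 in both without it (limma adjusted p = 0.0376), and Uqcrh went from 108 and 0.217 to 13.4 and 8.29 FPKM with Cre and from 0 in both to 222 and 189 FPKM without (adjusted p = 0.0254). For several of the 10 the fall in the Cre-negative libraries was part of the value, since E17.5 Cre-negative replicate 1 was high. Of the 10, Uqcrq, Atp5s and Atp5k passed the filter only with the group in which they were high, so their p-values add no support. Scaling of the libraries moved the median of all genes in this comparison from 1.59 to 1.48. Without P0.5 Cre-positive replicate 1 or 2 the count of 10 was 1 or 4, and without E17.5 Cre-negative replicate 1 or either P0.5 Cre-negative replicate it was 6; Uqcrh was not called without any of these 5 libraries. For P0.5 to P7.5 the step was lower with Cre for 4 members, Uqcrq, Cox8a, Atp5s and Atp5o (18.7% of all genes), and higher for none (2.74%; none had an unadjusted p under 0.05 in that direction). Without the 3 SC libraries set apart the count of 4 became 9, and leaving out single libraries gave 0 (P0.5 Cre-positive replicate 1) to 3 (P7.5 Cre-positive replicate 2).

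In the retina no member was called between consecutive stages, in a fit that called hardly any gene. The fit of the 8 retina libraries held 32 members among 4083 genes, of which 0% were called from E17.5 to P0.5, 0.049% from P0.5 to P7.5 and 0% from P7.5 to the adult, and no member had an unadjusted p under 0.05 in any of the 3 steps. The median difference of the members was -0.32, -0.61 and 0.17, beside -0.50, 0.32 and 0.10 for all genes, and median-ratio scaling moved the first 2 of the latter to -0.12 and 0.03. Retina replicates differed by up to the whole range of a gene at P7.5 and in the adult: Cox4i1 had 0.501 and 69.2 FPKM at P7.5 and 89.5 and 40.4 FPKM in the adult. Steadier values were seen at P0.5, where it had 58.5 and 63.3 FPKM.

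Axonal and retinal levels were compared among the 8 Cre-positive SC and 8 retina libraries, in a fit with 33 members and 6322 genes. SC libraries had more rounds of amplification than retina libraries, so source and amplification cannot be told apart here. At P0.5, 4 of 33 members were higher in the axonal libraries (32.7% of all genes tested were) and none was lower (2.01%; 1 member had an unadjusted p under 0.05). The members' share is well under that of all genes, although both SC libraries lay above both retina libraries for 24 of the 33 (53.7% of all genes) and below both for 7 (28.8%). Those 7 were Uqcr11, Cox5a, Cox4i2, Atp5e, Atp5h, Atp5j and Atp5j2.

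The 4 called were Uqcrfs1, Cox6b1, Atp5s and Atp5g1. Atp5g1, a gene for the c ring, had 29.8 and 30.9 FPKM in the SC and 1.35 and 1.7 FPKM in the retina, a difference of 3.64 ± 0.93 (SE; limma adjusted p = 0.00901). Cox6b1 had 137 and 169 FPKM against 2.55 and 2.88 FPKM, a difference of 5.37 ± 1.68 (SE; adjusted p = 0.0274). Uqcrfs1 had 28.4 and 30.1 against 0.369 and 0.874 FPKM, a difference of 4.24 ± 1.35 (SE; adjusted p = 0.0299), but the Cre-negative SC held more of it, at 60.3 and 60.4 FPKM. Atp5s was listed at 0 in both retina libraries (limma adjusted p = 2.04e-05), but it entered this fit only through the P0.5 SC libraries in which it was high. In the fit of these 4 libraries alone, 24 members were called higher and 5 lower, where 2936 and 436 of 3999 genes were. Without either P0.5 SC replicate no member was called, and without retina replicate 1 or 2, 1 or 2 were. The median difference of the 33 members was 3.31, beside 1.10 for all genes tested, which scaling moved to 0.94. At the other 3 stages no member was called, with 1.31% (E17.5), 0.0158% (P7.5) and 0.0949% (adult) of all genes called in either direction; unadjusted, 2 members were lower at E17.5, none at P7.5 and 3 in the adult.

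Summed over its members, each complex had its own order of groups at P0.5. Complex III summed to 524 and 301 FPKM in the Cre-positive and 587 and 578 FPKM in the Cre-negative SC, with 17.9 and 47.8 FPKM in retina, so its background was the higher sum. Most of that background came from Uqcr11 (196 and 290.1 FPKM) and Uqcrh (222 and 189 FPKM). With Cre these had 0 in both and 13.4 and 8.29 FPKM. Complex IV summed to 1786 and 1677 FPKM with Cre, 852 and 542 FPKM without and 134 and 195 FPKM in retina. The ATP synthase summed to 1792 and 1111 FPKM with Cre, 81.2 and 63.8 FPKM without and 124 and 113 FPKM in retina. For complex IV and the ATP synthase both Cre-positive libraries were above all others of that age, by more for the ATP synthase, whose Cre-negative sum lay even under that of retina. No test was made of these sums.

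At E17.5 the replicates of the SC differed more than the groups: the ATP synthase summed to 1214 and 16.1 FPKM with Cre and to 3029.8 and 111 FPKM without, and complex IV to 1291 and 144 FPKM and to 2994 and 158 FPKM. At P7.5 the sums with Cre were 12.6 and 2.7 FPKM for complex III, 43.1 and 119 FPKM for complex IV and 20.8 and 23.1 FPKM for the ATP synthase. All 6 were lower than any P0.5 Cre-positive sum of the same complex. In the adult they were 463 and 257 FPKM, 251 and 1.26 FPKM, and 71.5 and 1.92 FPKM. The adult sums of complex III came largely from Uqcr10 in replicate 1 (271 and 0 FPKM in the 2 libraries) and Uqcrc1 in replicate 2.

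**Figure D3:**
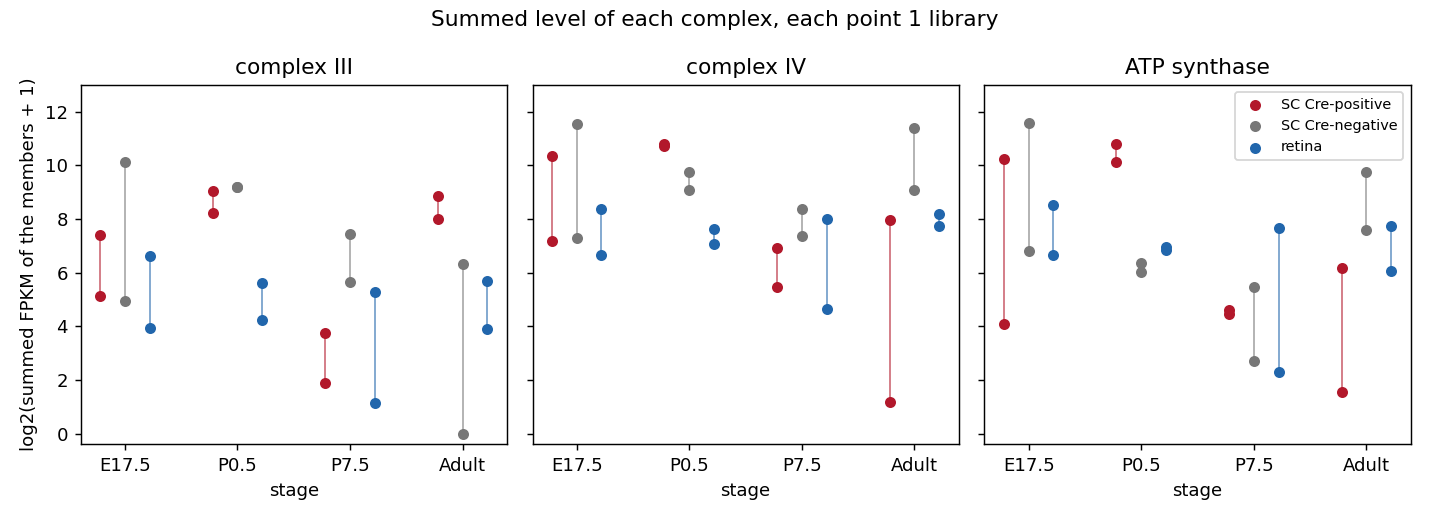
Summed level of the members of complex III, complex IV and the ATP synthase in each library, as log2(summed FPKM + 1) by stage, with 1 point a library and a line joining the 2 libraries of a group. At P0.5 the Cre-positive points of complex IV (1786 and 1677 FPKM) and the ATP synthase (1792 and 1111 FPKM) are above the other groups, and those of complex III (524 and 301 FPKM) are under the Cre-negative ones (587 and 578 FPKM). Uqcr11 and Uqcrh make up most of those Cre-negative sums of complex III.

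Several subunits exist as a general form and one known from muscle, lung or testis. In each of the 7 pairs of complex IV the general form had the higher level in both P0.5 Cre-positive libraries and both P0.5 retina libraries. Cox4i2, the form known from lung and induced by low oxygen, was listed at 0 in all 4 SC libraries at P0.5 and reached 2.73 FPKM in Cre-positive SC (E17.5 replicate 2), while in retina it ran from 0 to 19.9 FPKM. Cox6a2 and Cox8b, the muscle forms, and Cox7b2 and Cox8c, known from testis, were listed at 0 throughout. The testis form Cox6b2 and the muscle form Cox7a1 were above 0 in 3 and 2 retina libraries only, up to 1.20 and 1.30 FPKM. Cox7a2, the general form beside Cox7a1, had 43.6 and 51.6 FPKM with Cre and 5.39 and 1.92 FPKM without at P0.5, and 14.8 and 23.9 FPKM in retina. At E17.5 Cox7a2 had 32 and 0.82 FPKM with Cre, 109.7 and 2.59 FPKM without and 27.3 and 60.5 FPKM in retina. At P7.5 Cox7a2 had 3.98 and 8.18 FPKM with Cre, 0.258 and 4.84 FPKM without and 3.71 and 15.7 FPKM in retina, and in the adult 0 and 1.26 FPKM with Cre, 25.5 and 0 FPKM without and 0 and 45.3 FPKM in retina.

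Cox8a, the general form of subunit VIII, had 9.11 and 20.5 FPKM in retina at P0.5. At E17.5 Cox8a had 0 and 13.7 FPKM with Cre, 460.2 and 17.8 FPKM without and 9.94 and 24.5 FPKM in retina. At P7.5 Cox8a had 0 and 6.8 FPKM with Cre, 22.9 and 22.1 FPKM without and 0.339 and 19.8 FPKM in retina, and in the adult 36.4 and 0 FPKM with Cre, 214 and 1807 FPKM without and 22.9 and 24 FPKM in retina. Its highest level of all came from adult Cre-negative replicate 2, the library with no RGC gene above 0. Cox7b, the general form of subunit VIIb, had 8.66 and 13.5 FPKM in retina at P0.5. At E17.5 Cox7b had 131 and 16.6 FPKM with Cre, 133 and 25.4 FPKM without and 15.4 and 49.8 FPKM in retina. At P7.5 Cox7b had 8.66 and 5.62 FPKM with Cre, 47.1 and 14.3 FPKM without and 17.4 and 39.4 FPKM in retina, and in the adult 107 and 0 FPKM with Cre, 8.84 and 0 FPKM without and 24.4 and 37.3 FPKM in retina. It was above 0 in all 8 retina libraries.

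The c ring of the ATP synthase is encoded by 3 genes whose mature proteins are the same. Atp5g3 gave the highest axonal level at P0.5, 204 and 115 FPKM, followed by Atp5g1 at 29.8 and 30.9 FPKM, and Atp5g2 was listed at 0. At E17.5 Atp5g3 had 30.1 and 0.316 FPKM with Cre, 202 and 0 FPKM without and 7.06 and 50.3 FPKM in retina. At P7.5 Atp5g3 had 0 in both with Cre, 0 in both without and 0.25 and 19.2 FPKM in retina, and in the adult 0 in both with Cre, 7.37 and 0 FPKM without and 0 and 28.2 FPKM in retina. At E17.5 Atp5g1 had 0 and 0.126 FPKM with Cre, 239 and 3.08 FPKM without and 0.335 and 4.48 FPKM in retina. At P7.5 Atp5g1 had 2.06 and 3.09 FPKM with Cre, 3.3 and 0.464 FPKM without and 0.609 and 3.72 FPKM in retina, and in the adult 0 in both with Cre, 2.96 and 555 FPKM without and 0 and 2.32 FPKM in retina. Atp5g3 exceeded Atp5g1 in every P0.5 library of Cre-positive SC and of retina. In the adult libraries without run-off, Atp5g3 had 72 reads and Atp5g1 105 in SC, and 590 and 9 in retina, not scaled to length. Atp5g2 has 2 copies with up to 100% identity, and its zeros need not mean that no mRNA was bound.

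Other genes of these complexes, fixed in a list of 42 (subunits the naming rule does not take, assembly factors, cytochrome c and the ATPase inhibitor), could be followed for 35 in the files and 14 in the SC fit. At P0.5, 7 of the 14 were higher with Cre and none was lower. Of complex III these were the electron carrier subunit Cyc1, at 137 and 89.8 FPKM with and 0 and 0.0832 FPKM without Cre, and the assembly factors Uqcc1 and Uqcc2. Of complex IV they were the assembly factors Coa3, at 102 and 87.4 against 0 in both (limma adjusted p = 0.0026), Cox14 and Cox19. Of the ATP synthase it was 2010107E04Rik, at 55.4 and 41.2 against 0 in both (adjusted p = 0.0402). From E17.5 to P0.5, 4 of the 14 rose in Cre-positive SC, and from P0.5 to P7.5, 5 fell, with none in the opposite direction in either step, shares near the 25.1% and 29.2% of all genes tested. The share higher at P0.5, 7 of 14, stands beside 28.1% of all genes tested, and 14 genes are few. Cox19 was above 0 in the SC only in the P0.5 Cre-positive libraries (11.5 and 5.52 FPKM) and passed the filter only through them. Uqcc1 also needed that group to pass, with 2.75 and 0.664 FPKM there and 1.55 FPKM in E17.5 Cre-positive replicate 2. The calls of Cox19 and Uqcc1 add no support beyond those values.

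Run-off asks whether the ribosomes on an mRNA were moving: elongating ribosomes leave the mRNA in a lysate in which new initiation is blocked, and the reads left afterwards are mRNA that stayed in the pull-down. Run-off libraries without Cre were not analysed here, so the background in these reads is not known. The adult SC libraries had 3262914 reads on genes without and 349395 with run-off (10.7%), and the retina libraries 4686284 and 315009 (6.72%). Reads are given unscaled, since the sequenced amount followed the amount of cDNA. With 1 library a condition no test was made, and intervals are exact 95% intervals that cover counting error only. In SC, 25 of 28 members with a read had fewer reads with run-off, where 84.9% of all genes with a read had, and 11 of 27 had none left, where 58% of genes had. In the retina 35 of 36 members had fewer (92.1% of genes) and 16 of 36 had none left (62.5%).

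Complex III was almost emptied by run-off in SC, the ATP synthase was not. Complex III summed to 1111 reads without and 2 with run-off (0.180%), complex IV to 2341 and 175 (7.48%), and the ATP synthase to 5077 and 1177 (23.2%), beside 10.7% for all genes. In retina the order was another: complex III kept 25 of 713 reads (3.51%), complex IV 165 of 910 (18.1%) and the ATP synthase 292 of 4067 (7.18%), beside 6.72% for all genes. As a share of the library, 18 of the 28 members in SC (72.3% of genes) and 21 of the 36 in retina (71.9% of genes) were lower with run-off.

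Within the ATP synthase 3 members held most of what was left in SC. Atp5d had 1391 reads without and 661 with run-off, or 47.5% (43.3 to 52.2), and its share of the library was 4.44 times as high with run-off. Atp5b had 931 and 310 reads, or 33.3% (29.2 to 37.9), and Atp5a1 351 and 108 reads, or 30.8% (24.6 to 38.3). The stator subunit Atp5f1, second in reads, went from 956 to 50, or 5.23% (3.85 to 6.95), Atp5c1 from 806 to 1 and Atp5o from 373 to 1. These 6 subunits of 1 enzyme kept from 0.124% to 47.5% of their reads. In retina Atp5d had 402 and 15 reads, or 3.73% (2.07 to 6.23), Atp5b 1333 and 53, or 3.98% (2.96 to 5.23), and Atp5a1 631 and 42, or 6.66% (4.75 to 9.10). Atp5g3 was the third in retina with 590 and 51 reads, or 8.64% (6.36 to 11.5). Atp5f1 had 365 and 18 reads in retina, or 4.93% (2.89 to 7.91). Atp5c1 had 320 and 63, or 19.7% (14.8 to 25.9), and Atp5o 167 and 47, or 28.1% (19.9 to 39.1). Of the 6, Atp5c1 and Atp5o thus kept the least in SC and the most in retina.

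In complex III, Uqcrc1 went from 721 reads to 1 in SC and from 209 to 0 in retina, and Uqcrfs1 from 239 to 0 and from 221 to 0. Uqcr10 went from 86 to 0 in SC, and Uqcrc2 from 193 to 0 in retina. A count of 0 allows up to 3 reads, or 8.59 CPM (reads scaled to the library total) in the SC and 9.52 in the retina library with run-off. In complex IV, Cox5a went from 841 to 29 reads in SC, or 3.45% (2.30 to 4.99), but from 152 to 76 in retina (37.5 to 66.3% of the reads). Cox4i1 went from 637 to 77 in SC, or 12.1% (9.42 to 15.3), and from 419 to 36 in retina, or 8.59% (5.94 to 12.1). Cox7a2l went from 457 reads to 0 in SC and from 69 to 0 in retina, and Cox6a1 from 89 to 5 in retina, the third of the complex there. Cox6b1 went from 2 reads to 0 in SC and from 20 to 0 in retina.

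Few members had more reads after run-off, and those had few reads. In SC these were Cox6c, with 2 reads without and 10 with run-off, and Atp5l, with 0 and 9, while Uqcr11 had 1 in each. In retina it was Cox7b, with 20 and 28 reads. Cox6c, Atp5l and Cox7b all have near-identical copies elsewhere in the genome, whose part was not tested. Atp5l was at 0 in 22 of the 24 stage libraries.

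**Figure D4:**
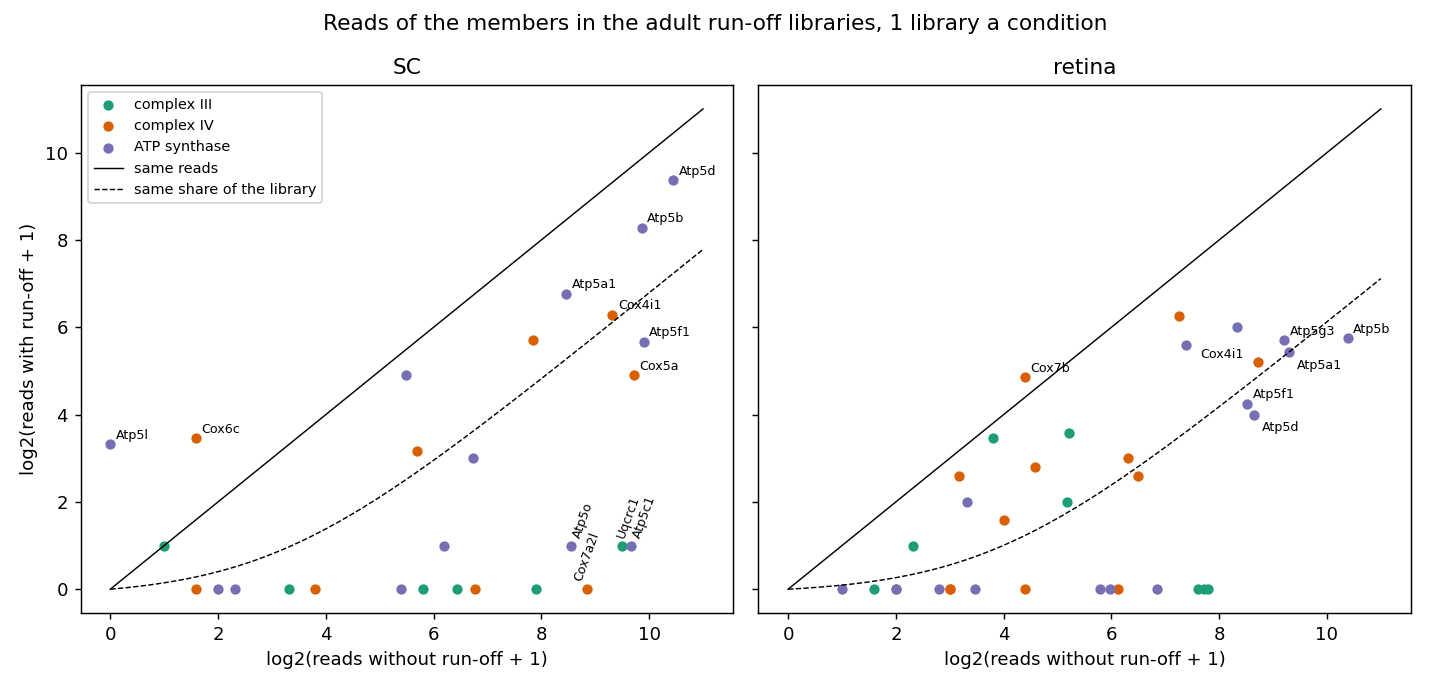
Reads of each member without (x axis) and with (y axis) ribosome run-off, as log2(reads + 1), in adult SC (left) and retina (right), with 1 point a member and 1 library a condition. The solid line marks equal reads and the dashed line the loss of the whole library (10.7% left in SC, 6.72% in retina); Atp5d, Atp5b and Atp5a1 lie above the dashed line in SC, and Cox7a2l and the members of complex III lie at or near 0.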

How the data were processed

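Ribosome-bound mRNA of 28 mouse libraries was followed: 24 in 12 groups of 2 replicates and 4 run-off libraries. The authors deposited FPKM values per gene for the 24, from reads aligned to mm10 with TopHat2 2.0.12 and summarised with Cufflinks 2.2.1, and counts of reads per gene made with HTSeq 0.6.1p1 for the 4 run-off libraries, as the study's methods and processing notes give them. SC cDNA had more rounds of PCR than retinal cDNA, from 6 pooled SCs or 3 pooled eyes a sample. Depth is not known for the FPKM libraries, and counts on genes ran from 315009 to 4686284 in the run-off libraries. The members and lists were chosen with earlier results of these data known. Genes with at least 1 FPKM in 2 libraries of a fit were tested with limma 3.58.1 (R 4.3.3; trended, robust) on log2(FPKM + 1), two-sided, with Benjamini-Hochberg adjustment within each contrast over all genes tested. Fits took the 16 SC libraries, the 8 retina libraries, or the 8 Cre-positive SC and 8 retina libraries, without a block. The study tested read counts, which were not used here for the stage series, so the test differs from that of the study. Named members were, per complex, the 2 with the highest mean in Cre-positive SC, the 3 with the smallest p for Cre at P0.5, any called for Cre at another stage or in a retinal step, and tissue isoforms and, in run-off, the 3 with the most reads and any with more reads afterwards. Atp5a1 in the stage steps and the further members given in a clause were chosen after their values were seen. In the run-off libraries no test was made; percentages carry exact 95% intervals and a count of 0 allows 3 reads. Near-identical copies were found with blastn 2.17.0. Alternatives were another pseudocount (0.1), no filter, median-ratio scaling, a replicate block, only the groups compared, structural subunits alone, single libraries left out, CPM and, chosen after the data were seen, 4 libraries of low estimated depth or few genes left out (3 in the SC fit).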

Additional observations from a re-analysis of the deposited data

Results flagged for a closer look

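For 11 members the change from E17.5 to P0.5 differed between the genotypes by the interaction test in limma (adjusted p under the threshold of 0.05). On the log2(FPKM + 1) scale, the Cre-positive step minus the Cre-negative step was 6.89 for Uqcrq and 11.9 for Uqcr10 in complex III, 10.9 for Cox8a and 10.04 for Cox6b1 in complex IV, and 12.7 for Atp5o, 9.68 for Atp5g1, 9.42 for Atp5f1, 9.01 for Atp5c1, 7.13 for Atp5k and 4.24 for Atp5s in the ATP synthase. Atp5k was listed at 0 in every Cre-positive library of both stages, and the difference is its fall in the Cre-negative libraries. Atp5k, Atp5s and Uqcrq passed the filter only with the group in which they were high, so their p-values add no support. For Uqcrh the difference between the steps was -7.68. Each of these genes was listed at 0 in at least 1 of the 8 libraries compared, so the sizes depend on the added 1 and are not folds.

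From P0.5 to P7.5 the same difference was -8.47 for Uqcrq, -9.40 for Cox8a, -7.27 for Atp5o and -4.24 for Atp5s, on the same scale and with the same limit. With 2 libraries in a group no single library could be tested as standing apart from its group.

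After run-off, 3 members moved in opposite directions in SC and retina, with 1 library a condition, so that the difference was not tested. Reads with minus without run-off were 9 in SC and -1 in retina for Atp5l, 8 and -13 for Cox6c, and -108 and 8 for Cox7b.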

How the results depend on the processing

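With only the compared groups in the fit, 17 members (10 in the fit of all SC libraries) were higher with Cre at P0.5, where 2381 of 4014 genes were (1684 of 5983), and 0 (1) lower at E17.5; from E17.5 to P0.5, 1 fell (0); from P0.5 to P7.5, 20 fell (11), as did 2312 of 3901 genes, and 2 rose (0); the interactions gave 0 lower (1) for the first step and 13 lower (4) and 1 higher (0) for the second; and against retina at P0.5, 24 were higher (4) and 5 lower (0). With no filter on low values, 1 member was lower with Cre at P0.5 (2), 0 over all stages (1), 6 fell from P0.5 to P7.5 (11), 2 had a lower second interaction (4) and 2 were higher than in retina at P0.5 (4). A pseudocount of 0.1 gave 2 lower over all stages (1), 2 that fell from E17.5 to P0.5 (0), and against retina at P0.5 1 higher (4) and 1 lower (0). Median-ratio scaling gave 1 lower than in retina at P0.5 (0). Counting structural subunits alone left 0 higher over all stages (1). Without the 3 SC libraries of low estimated depth or few genes, chosen after the data were seen, 1 was higher with Cre in the adult (0), 2 over all stages (1), 10 rose (6) and 1 fell (0) from E17.5 to P0.5, 1 rose from P0.5 to P7.5 (0), 2 rose from P7.5 to the adult (0), and the interactions had 2 (1) and 9 (4) lower.

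Replicate numbers are shared between groups in the labels, which do not say that a number marks a litter. Same-numbered samples deviated together with correlations of 0.486, 0.607, 0.333 and 0.0578 (Cre-positive against Cre-negative SC, E17.5 to adult) and 0.127, 0.444, 0.415 and -0.0366 (Cre-positive SC against retina). With the replicate block, 0 members were lower with Cre at E17.5 (1), 12 higher at P0.5 (10), 2 lower over all stages (1), 1 fell from E17.5 to P0.5 (0) and 1 was lower than in retina at P0.5 (0).

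Leaving out 1 library at a time left 1 to 4 members higher (10) and 0 lower (2) with Cre at P0.5, 0 to 1 higher (0) and 0 to 5 lower (1) at E17.5, and 0 to 2 higher (1) and 0 to 1 lower (1) over all stages. From E17.5 to P0.5, 1 to 7 rose (6) and 0 to 3 fell (0), and from P0.5 to P7.5, 1 to 5 fell (11). The interactions kept 1 to 12 higher (10) and 0 to 1 lower (1), and 0 to 3 lower (4). Against retina, 0 to 2 were higher (4) and 0 to 1 lower (0) at P0.5, and 0 to 1 higher (0) at E17.5. A group reduced to 1 library was taken to vary like the others. No called value changed sign under any alternative run. In run-off, 21 of 36 retinal members were lower in CPM (35 had fewer reads), and 20 of 21 with at least 30 reads had fewer. Depth limits the libraries with few fragments most: an estimated 3 fragments of a transcript of 1 kb stand for 0.255 to 7.28 FPKM. The cause of the changes with the filter, the pseudocount, the scaling, the block and the groups in the fit was not tested.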
